A study of Mus musculus with 2 samples.

Results

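The genes described here are 32 coagulation and fibrinolysis genes, measured by RNA sequencing in cultured primary hepatocytes of C57Bl6 mice. They were chosen by name from the pathway, and all 32 were found among the 36808 genes of the deposited table. The cultures received either 1 µM GW3965, a compound that activates the sterol-sensing liver X receptors, or the solvent DMSO alone. Both groups were isolated hepatocytes in William E medium with serum, insulin and dexamethasone, a glucocorticoid. With a single library (n = 1) in each group, none of the differences below could be checked against replicates. The table calls its treated library GL, taken here to be GW3965 as the only treatment in the labels; this reading is not certain.

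The liver makes most of the proteins that form and dissolve blood clots. Coagulation is a chain of proteases, made as inactive precursors, that ends in thrombin, which cuts fibrinogen into fibrin. Anticoagulant proteins restrain those proteases, and the fibrinolytic system, centred on plasmin, breaks fibrin down again. Fibrinogen is built from chains encoded by Fga, Fgb and Fgg, neighbouring genes whose hepatic transcription is known to rise in the acute phase response through interleukin-6 and STAT3.

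Levels are FPKM, fragment numbers scaled to transcript length and to library size. Ratios are GW3965 to DMSO on the log2 scale after 1 was added to each FPKM, unless stated otherwise, which understates differences of genes with low values. A gene counted as higher or lower past the size threshold if this ratio reached 1.5-fold and its FPKM was at least 1 in either library, which 30 of the 32 genes met. Steps between low FPKM values place the depth at about 73900000 fragments for the GW3965 library and about 59300000 for the DMSO library. Standard errors (SE) of log2 FPKM ratios were derived from the test statistic in the authors' deposited table and describe that table's 2 libraries, not the conditions.

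Markers of hepatocytes and of other liver cell types were both found in the libraries. Of the 8 hepatocyte markers, 5 were at an FPKM of at least 1 and Tat was below it. Alb and Trf could not be used, because their loci were marked as holding too many fragments. The 9 endothelial markers all reached the minimum, among them Cdh5 at 65.2 FPKM in GW3965 and 52.9 in DMSO. Macrophage markers did so for 5 of 7 genes, stellate and fibroblast markers for 6 of 7, and cholangiocyte markers for 3 of 5. Of 6 platelet markers, 2 did so and Gp1bb was listed at 0 in both libraries. In such a bulk library, fewer cells of a type and less RNA per cell cannot be told apart.

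Lower levels past 1.5-fold in GW3965 were found for the fibrinogen chain genes Fga and Fgg and for the coagulation inhibitor gene Serpina10. These 3 were the only genes of the set past that size, and none was at least 1.5-fold higher. Over all genes at the minimum FPKM, 1.33% were lower and 1.02% higher past this size, and over protein-coding genes 0.781% were lower and 0.827% higher. Ratios were below 0 for 22 of the 30 genes, against 47.1% of all genes, and the median of the set was -0.12. The 22 include Klkb1, which reached the minimum FPKM in DMSO alone. The genes on either side of the lower threshold were Fgg at -0.68 and Serpinf2 at -0.49. Within 0.25 of 0 were 18 of the 30 genes, against 84.9% of all genes. A p below 0.05 in the authors' deposited table, unadjusted, was reached by 6 of the 32 genes, all lower in GW3965: Serpina10, Fgg, Fga, F3, Serpinf2 and Plat. Such values on the lower side made up 1.86% of the 15090 genes the authors tested and on the higher side 1.48%. After adjustment the authors' deposited table calls 1 gene of the set, Serpina10, at q = 0.0228, and calls of lower genes were 0.119% of the genes tested.

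**Figure D1:**
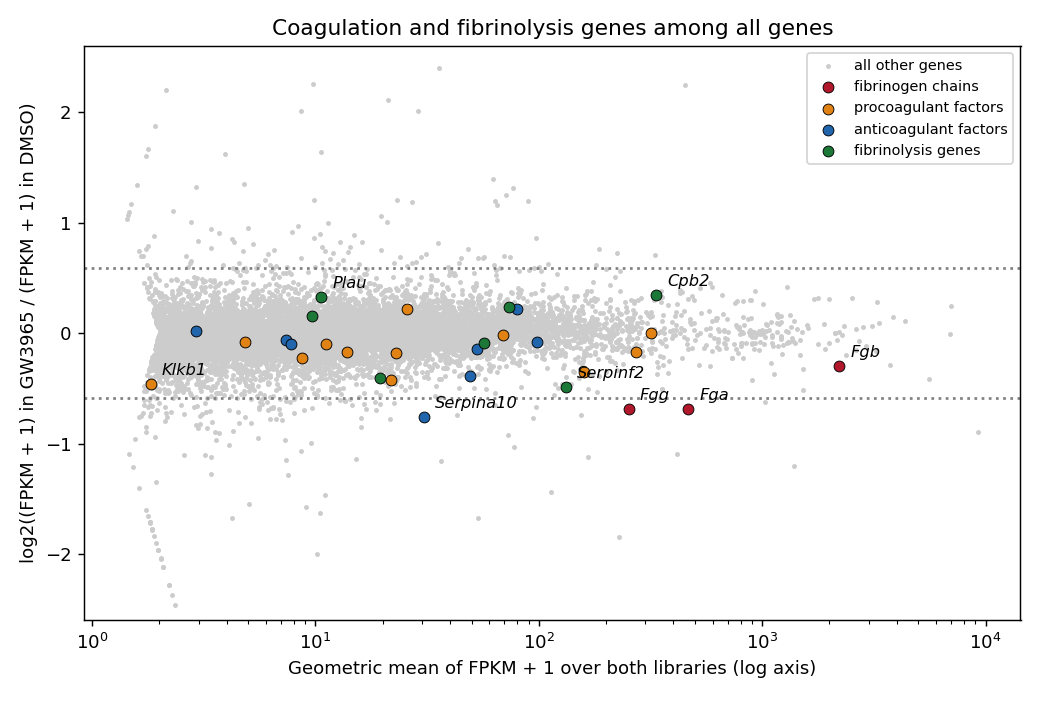
Log2 ratio of GW3965 to DMSO with the pseudocount (vertical axis) against the geometric mean of FPKM + 1 (log axis) for genes at an FPKM of at least 1, grey for other genes and coloured for the set, with dotted lines at 1.5-fold and 15 genes outside the plotted range. Serpina10, Fgg and Fga are the coloured points below the lower line, and no coloured point is above the upper one.

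The upstream sequences of the fibrinogen genes are shown here because Fga and Fgg, 2 of the 3 genes past 1.5-fold, are neighbours whose products enter 1 protein with that of Fgb. Each line gives the 250 bases before the RefSeq start of the gene in GRCm38.p6, written 5′ to 3′ on the gene's own strand. GENCODE M21 has a transcript start at the same base for Fgg and Fgb, and 62 bases downstream of it for Fga. Capitals mark CTGGGA, the core of the interleukin-6 response element known from fibrinogen genes, found on either strand.
Fgg, chr3:83007474-83007723, plus strand: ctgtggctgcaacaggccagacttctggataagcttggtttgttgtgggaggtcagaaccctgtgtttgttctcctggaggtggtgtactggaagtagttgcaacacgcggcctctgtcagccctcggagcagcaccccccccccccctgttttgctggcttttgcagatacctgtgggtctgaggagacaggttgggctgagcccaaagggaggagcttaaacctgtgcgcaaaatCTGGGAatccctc
Fga, chr3:83025903-83026152, plus strand: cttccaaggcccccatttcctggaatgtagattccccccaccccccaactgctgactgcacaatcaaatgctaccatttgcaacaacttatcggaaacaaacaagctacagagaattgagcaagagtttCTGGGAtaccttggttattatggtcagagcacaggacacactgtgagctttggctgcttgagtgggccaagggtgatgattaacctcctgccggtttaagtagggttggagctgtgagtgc
Fgb, chr3:83049864-83050113, minus strand: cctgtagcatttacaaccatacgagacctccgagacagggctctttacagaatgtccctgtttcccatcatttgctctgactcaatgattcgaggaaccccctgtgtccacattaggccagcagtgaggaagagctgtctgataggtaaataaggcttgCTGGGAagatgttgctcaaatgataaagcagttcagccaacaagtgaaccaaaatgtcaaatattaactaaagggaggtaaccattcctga

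Each of these windows held CTGGGA 1 time, beginning 13 bases before the start in Fgg, 121 in Fga and 91 in Fgb. The same letters occurred in 27.0% of all 32851 windows of this length in the RefSeq table, and in 9 of the 24 windows that matched a gene of the set. The C/EBP pattern TTNNGNAA, searched on both strands, was in the Fga and Fgb windows, in 11 of the 24 windows of the set and in 36.8% of all windows. The STAT pattern TTCNNNGAA, which reads the same on both strands, was also in Fga and Fgb. With F9 and Pros1 this made 4 of the 24 windows of the set, against 7.02% of all windows. These are matches of letters in short windows and say nothing of binding.

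All 3 fibrinogen chains were lower in the GW3965 library, and Fga and Fgg by almost the same amount. Fga, the alpha chain (ENSMUSG00000028001, chromosome 3, 82830075 to 82838036, mm9), had 366.7 FPKM in GW3965 and 591.3 in DMSO, a ratio of -0.69. Fgg, the gamma chain (ENSMUSG00000033860, chromosome 3, 82811781 to 82818975), had 198.7 FPKM in GW3965 and 320.0 in DMSO, a ratio of -0.68. Fgb, the beta chain (ENSMUSG00000033831, chromosome 3, 82846169 to 82853725), had 1999.5 FPKM in GW3965 and 2458.0 in DMSO, a ratio of -0.30. The first pair thus stood 37.9% to 38.0% below DMSO and Fgb 18.7% below it.

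The chains were not present in equal amounts per length in either library. Fgb made up 78.0% of the summed fibrinogen FPKM in GW3965 and 73.0% in DMSO, and the sum was 2565 FPKM in GW3965 and 3369 in DMSO. The ratio of Fgb to Fga was 5.45 in GW3965 and 4.16 in DMSO. The ratio of Fga to Fgg was 1.85 in GW3965 and 1.85 in DMSO, so these chains kept their proportion to each other in these libraries. By FPKM, Fgb ranked 26 in GW3965 and 18 in DMSO among the 36801 genes not marked for too many fragments. Genes so marked, Alb and Trf among them, were not ranked.

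The authors' deposited table calls none of the fibrinogen chains. In the authors' deposited table Fgg had q = 0.189 and Fga q = 0.571, with unadjusted p = 0.00104 for Fgg, p = 0.00586 for Fga and p = 0.451 for Fgb. The SE of the log2 FPKM ratio derived from the authors' deposited table was 0.21 for Fgg, 0.25 for Fga and 0.40 for Fgb. Counting error alone was far smaller: for Fgg, the exact 95% counting interval of the FPKM ratio was 0.611 to 0.631, an interval that does not cover variation among cultures. The next gene beyond Fgb, Plrg1, which encodes a splicing factor, had 33.9 FPKM in GW3965 and 31.2 in DMSO, a ratio of 0.12.

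**Figure D2:**
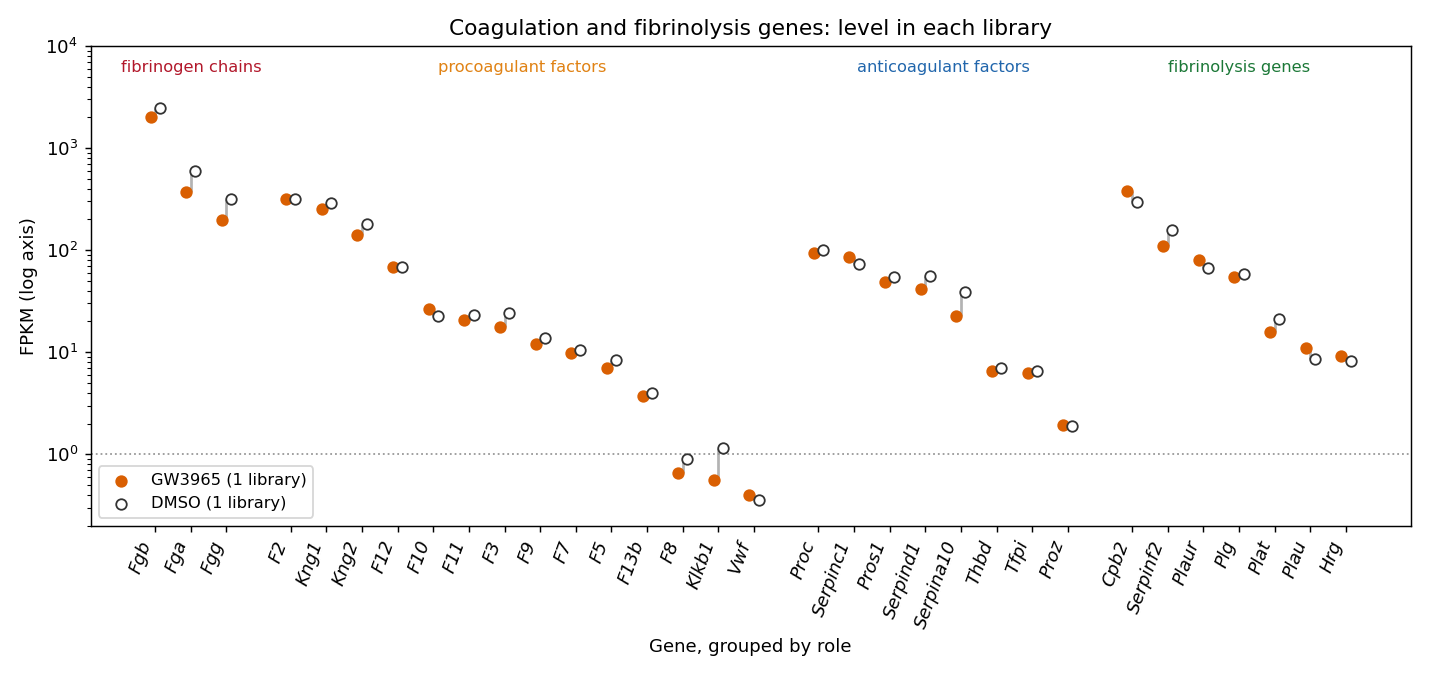
FPKM (log axis) of the 32 genes grouped by role, filled points for the GW3965 library and open points for the DMSO library, 1 library each, with the dotted line at an FPKM of 1. Fga and Fgg lie clearly apart between libraries while F2, at 316.0 FPKM in GW3965 and 315.8 in DMSO, does not, and levels run from Fgb at about 2000 FPKM down to Vwf at 0.402 in GW3965.

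Among the procoagulant factors at the minimum FPKM, 9 of 12 lay within 0.25 of 0, against 84.9% of all genes. Of the 14 genes, 12 reached the minimum FPKM, Klkb1 in DMSO alone, and none passed 1.5-fold in either direction. Ratios were below 0 for 10 of the 12, against 47.1% of all genes. Their median ratio was -0.17, beside 0.01 over all 11796 genes at the minimum. F2, the precursor of thrombin, had 316.0 FPKM in GW3965 and 315.8 in DMSO, a ratio of 0.00. F12, which starts the contact pathway, had 67.9 FPKM in GW3965 and 68.9 in DMSO, a ratio of -0.02. These abundant precursors were level between the libraries within an SE of 0.22 for F2 and 0.18 for F12, from the authors' deposited table.

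The other vitamin K dependent proteases differed by small amounts in both directions. F10, the protease that activates prothrombin, had 26.7 FPKM in GW3965 and 22.8 in DMSO, a ratio of 0.22. Its neighbour F7, which starts the extrinsic pathway together with tissue factor, had 9.80 FPKM in GW3965 and 10.6 in DMSO, a ratio of -0.10. F9, the haemophilia B factor, had 12.1 FPKM in GW3965 and 13.7 in DMSO, a ratio of -0.17. All 7 vitamin K dependent members, which include the anticoagulant genes Proc, Pros1 and Proz, stayed within 0.25 on the log2 scale. So did 84.9% of all genes at the minimum FPKM. Ggcx, the carboxylase that modifies these proteins, had 8.45 FPKM in GW3965 and 10.7 in DMSO, a ratio of -0.31. Vkorc1, which recycles vitamin K, had 22.9 FPKM in GW3965 and 26.4 in DMSO, a ratio of -0.20. The SE of its log2 FPKM ratio was larger, at 0.41 from the authors' deposited table. The related gene Vkorc1l1 lay on the other side, with 20.8 FPKM in GW3965 and 19.5 in DMSO, a ratio of 0.09. Ggcx, Vkorc1 and Vkorc1l1 were named after their values were seen.

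The 5 contact system members had ratios below 0, against 47.1% of all genes, and none passed 1.5-fold with the pseudocount. Among them, F12 was level at -0.02, and Klkb1 reached the minimum FPKM in DMSO alone. Kng1, which encodes a kininogen, the carrier of bradykinin, had 255.2 FPKM in GW3965 and 286.8 in DMSO, a ratio of -0.17. Kng2, another kininogen gene of the mouse, had 140.0 FPKM in GW3965 and 179.3 in DMSO, a ratio of -0.35. These genes share sequence, with 28.7% of the 25-base words of Kng1 transcripts and 30.1% of those of Kng2 found in the other, so reads can be split between them and both values are uncertain. F11, a protease of the intrinsic pathway, had 20.5 FPKM in GW3965 and 23.3 in DMSO, a ratio of -0.18.

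Klkb1, plasma prekallikrein, had the lowest FPKM ratio without a pseudocount but also the largest SE of the set. It was listed at 0.566 FPKM in GW3965 and 1.15 in DMSO, a log2 FPKM ratio of -1.03 with an SE of 1.72 from the authors' deposited table. With the pseudocount its ratio was -0.46. Its row shares a locus with Cyp4v3, at 35.3 FPKM in GW3965 and 40.7 in DMSO. The identifier of that row, ENSMUSG00000031640, belongs in GENCODE M21 to Gm45753, and Klkb1 has another one there. The symbols of the other 31 members matched their identifiers.

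The remaining procoagulant genes include those known mainly from cells other than hepatocytes. F3, tissue factor, which starts clotting outside the vessel, had 17.7 FPKM in GW3965 and 24.2 in DMSO, a ratio of -0.43. F5, the cofactor of factor X in its active form, had 7.03 FPKM in GW3965 and 8.39 in DMSO, a ratio of -0.22. Its locus in the table also holds Selp, so reads of both may mix. F13b, the carrier subunit of the fibrin-stabilising factor, had 3.71 FPKM in GW3965 and 3.99 in DMSO, a ratio of -0.08. F8 and Vwf, the haemophilia A factor and its carrier, both known from endothelial cells, did not reach the minimum FPKM in either library. F8 shares its locus in the table with Fundc2. F8 had 0.653 FPKM in GW3965 and 0.890 in DMSO, and Vwf had 0.402 in GW3965 and 0.353 in DMSO. The 95% counting intervals of these FPKM ratios, 0.418 to 1.25 for F8 and 0.738 to 1.77 for Vwf, include 1. They rest on the shortest coding transcript, 587 bases for F8 and 1807 for Vwf, against 9784 and 8834 for the longest. Longer transcripts would give narrower intervals, so these do not settle whether counts differed. The SE from the authors' deposited table was 0.48 for F8 and 0.57 for Vwf, beside log2 FPKM ratios of -0.45 and 0.19.

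**Figure D3:**
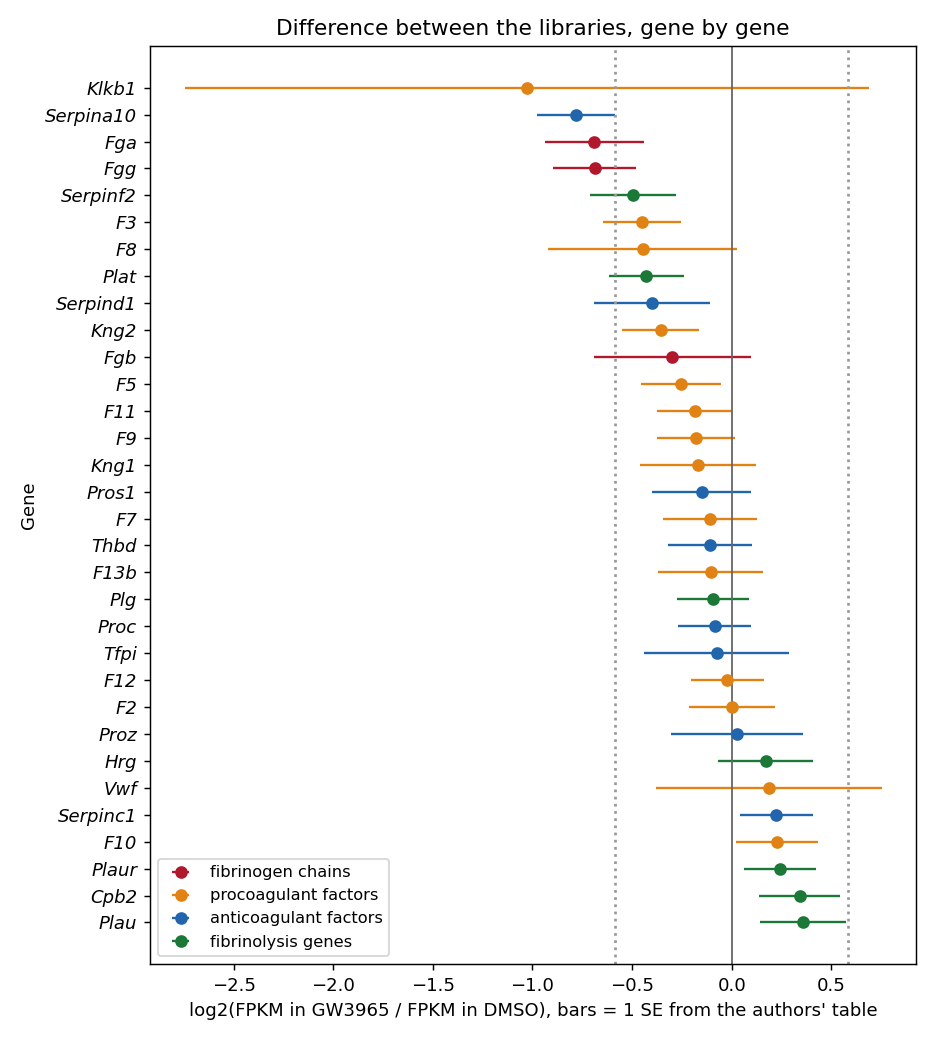
Log2 ratio of FPKM in GW3965 to FPKM in DMSO without a pseudocount (horizontal axis) for each of the 32 genes, with bars of 1 SE derived from the authors' deposited table and dotted lines at 1.5-fold. Serpina10, Fga and Fgg lie below the lower line, as does Klkb1, whose bar of 1.72 to each side crosses 0.

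Serpina10, the called gene, had p = 5.90e-05 in the authors' deposited table. It encodes the protein Z-dependent protease inhibitor, which blocks activated factor X (ENSMUSG00000061947, chromosome 12, 104854885 to 104869654, mm9). It fell to 22.5 FPKM in GW3965, against 38.7 in DMSO, a ratio of -0.76 and the lowest among the 30 genes at the minimum. The SE of its log2 FPKM ratio was 0.19, from the authors' deposited table. Proz, which encodes protein Z, the cofactor of this inhibitor, had 1.93 FPKM in GW3965 and 1.89 in DMSO, a ratio of 0.02. The 95% counting interval of its FPKM ratio was 0.789 to 1.32. That interval rests on the shortest coding transcript, 984 bases against 3361 for the longest, and a longer one would give a narrower interval.

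The other anticoagulant genes did not pass 1.5-fold. Serpinc1, antithrombin, had 85.6 FPKM in GW3965 and 73.2 in DMSO, a ratio of 0.22. Serpind1, heparin cofactor II, another thrombin inhibitor, had 42.0 FPKM in GW3965 and 55.3 in DMSO, a ratio of -0.39. The table places Serpind1 in 1 locus with Pi4ka, at 25.1 FPKM in GW3965 and 22.2 in DMSO, so its reads may be mixed. The 3 thrombin- and factor X-directed serpins Serpinc1, Serpind1 and Serpina10 thus had ratios on both sides of 0 in these libraries.

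The protein C system was close to level. Proc, protein C, had 94.1 FPKM in GW3965 and 99.8 in DMSO, a ratio of -0.08. Pros1, its cofactor protein S, had 49.0 FPKM in GW3965 and 54.4 in DMSO, a ratio of -0.15. Both differences were smaller than 1 SE from the authors' deposited table. Thbd, the thrombin receptor thrombomodulin, known mainly from endothelial cells, had 6.53 FPKM in GW3965 and 7.04 in DMSO, a ratio of -0.09. Tfpi, the inhibitor of the tissue factor complex, had 6.21 FPKM in GW3965 and 6.55 in DMSO, a ratio of -0.07. Over the 8 anticoagulant genes the median ratio was -0.09, with 6 genes below 0, against 47.1% of all genes.

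Of the 4 subgroups, the fibrinolysis genes alone had a median above 0, at 0.15, with 4 members above 0 and 3 below. That median is the ratio of Hrg, which had p = 0.473, unadjusted, in the authors' deposited table. The 2 members with an unadjusted p below 0.05 there, Serpinf2 and Plat, were both lower. The subgroup holds activators and inhibitors, so its median gives no direction of fibrinolysis. Cpb2, which encodes the fibrinolysis inhibitor TAFI, had 377.0 FPKM in GW3965 and 297.5 in DMSO, a ratio of 0.34 and the highest of the set. Serpinf2, the plasmin inhibitor antiplasmin, had 110.9 FPKM in GW3965 and 156.2 in DMSO, a ratio of -0.49, the nearest to the size threshold of those that did not reach it. These plasmin-restraining genes lay on opposite sides of 0 in these libraries, and the authors' deposited table calls neither, with p = 0.0942 for Cpb2 and p = 0.0225 for Serpinf2.

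The plasminogen activators also lay on opposite sides. Plau, urokinase, had 10.9 FPKM in GW3965 and 8.50 in DMSO, a ratio of 0.32. Plaur, the urokinase receptor, had 79.2 FPKM in GW3965 and 67.0 in DMSO, a ratio of 0.24. The enzyme and its receptor were thus on the higher side, by less than 1.5-fold. Plat, the tissue-type activator, had 15.9 FPKM in GW3965 and 21.3 in DMSO, a ratio of -0.41. Their substrate Plg, plasminogen, had 54.2 FPKM in GW3965 and 57.8 in DMSO, a ratio of -0.09. Hrg, a plasma protein that binds plasminogen and heparin, had 9.15 FPKM in GW3965 and 8.13 in DMSO, a ratio of 0.15.

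Fga and Fgg were 2 of the 8 members with at least 100 FPKM in either library, a limit chosen after the values were seen. Of all genes at that level, 1.6% were at least 1.5-fold lower. The 24 members made mainly by hepatocytes had a median of -0.16, with 18 below 0, against 47.1% of all genes at the minimum FPKM. The 6 measured members known mainly from other cells had a median of -0.08, with 4 below 0. Beside them, hepatocyte markers had a median of -0.12 over 5 genes, their summed level being 2240 FPKM in GW3965 and 2716 in DMSO. Most of the gap in that sum came from Ahsg, a plasma glycoprotein. It had 830.5 FPKM in GW3965 and 1283.9 in DMSO, a ratio of -0.63. The others stood at 0.14 for Apoa1, -0.10 for Apoc3, -0.12 for Ttr and -0.40 for Serpina1c. Endothelial markers were above 0 for 8 of 9 genes, beside 6237 of all 11796 genes at the minimum FPKM. Their median was 0.27, and their summed level was 233.7 FPKM in GW3965 and 203.4 in DMSO. The ninth, Clec4g, a lectin gene of liver sinusoidal endothelium, was the endothelial marker past 1.5-fold, with 0.996 FPKM in GW3965 and 2.14 in DMSO, a ratio of -0.66 with p = 0.00629, unadjusted, in the authors' deposited table. The marker lists of the other non-hepatocyte types also summed to higher levels in GW3965, though each had members on both sides of 0. Macrophage markers had a median of 0.04 and summed to 106.7 FPKM in GW3965 and 86.8 in DMSO. Most of that gap came from Cd68, at 93.9 FPKM in GW3965 and 74.9 in DMSO. Of the 5 measured macrophage markers, 3 were above 0 and 2 below. Stellate and fibroblast markers had a median of 0.18 and summed to 23.5 FPKM in GW3965 and 19.2 in DMSO. Cholangiocyte markers had a median of 0.07, with 30.4 FPKM in GW3965 and 28.4 in DMSO, and platelet markers 0.04, with 7.31 FPKM in GW3965 and 6.59 in DMSO. The 2 measured platelet markers lay on opposite sides, Itga2b at 0.38 and Pf4 at -0.31. The part of cell composition in the ratios of the clotting genes was not tested.

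Of the neighbouring genes in the set, Fgg and Fga had the ratios closest to each other. The SE of the log2 FPKM ratio, from the authors' deposited table, ran from 0.19 for F11 to 0.40 for Fgb in these genes. That of Klkb1 was 1.72. Whether neighbours differed from each other was not tested. On chromosome 3, Fgg, Fga and Fgb follow each other with gaps of 11.1 and 8.1 kb and stood at -0.68, -0.69 and -0.30. On chromosome 8, F7, F10 and Proz lie within gaps of 1.5 and 4.2 kb and stood at -0.10, 0.22 and 0.02. On chromosome 16, Hrg, Kng2 and Kng1 follow each other with gaps of 24.2 and 28.8 kb and stood at 0.15, -0.35 and -0.17. F11 and Klkb1, on chromosome 8 with a gap of 7.4 kb, stood at -0.18 and -0.46. These loci are as the table gives them in mm9.

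Among other haemostasis genes, Thbs1 alone passed 1.5-fold, and the 4 largest ratios lay on both sides of 0. Of 35 listed genes, 34 were found in the table and 27 reached the minimum FPKM, with 1 at least 1.5-fold higher, none lower and a median of 0.05. Over all genes at the minimum, 1.02% were higher and 1.33% lower past this size. Thbs1, thrombospondin 1, a platelet and matrix glycoprotein, had 36.8 FPKM in GW3965 and 22.5 in DMSO, a ratio of 0.69 with q = 0.646 in the authors' deposited table. Serpinb2, an inhibitor of urokinase, had 4.58 FPKM in GW3965 and 3.04 in DMSO, a ratio of 0.47. Tfpi2, a Kunitz-type protease inhibitor, had 28.9 FPKM in GW3965 and 20.9 in DMSO, a ratio of 0.45. None of these higher genes is called in the authors' deposited table. Habp2, the factor VII-activating protease, had 11.98 FPKM in GW3965 and 16.9 in DMSO, a ratio of -0.46.

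Apart from Hamp, the measured genes of the interleukin-6 pathway and other acute phase genes lay nearer to 0 than Fga and Fgg. Those chains were among the lowest ratios of the set, however. Fgb, at -0.30, lay nearer to 0 than Saa3, Hp and Hnf4a. A link between these genes and the fibrinogen chains was not tested. The 25 measured members had a median of -0.07, with 18 below 0, against 47.1% of all genes. Of these members, 1 was at least 1.5-fold lower, against 1.33% of all genes, and none was higher, against 1.02%. That gene was Hamp, hepcidin, at 67.9 FPKM in GW3965 and 186.2 in DMSO, a ratio of -1.44 with q = 9.67e-09 in the authors' deposited table. Saa3, a serum amyloid A gene, had 295.9 FPKM in GW3965 and 421.7 in DMSO, a ratio of -0.51. Hp, haptoglobin, had 4826 FPKM in GW3965 and 6437 in DMSO, a ratio of -0.42. The authors' deposited table calls neither Saa3 nor Hp. Hnf4a, a hepatocyte transcription factor, had 37.4 FPKM in GW3965 and 49.4 in DMSO, a ratio of -0.39. Stat3, the factor through which interleukin-6 acts on fibrinogen genes, stood at 0.12 and its feedback inhibitor Socs3 at -0.07. The acute phase genes Orm1 and Saa1 stood at -0.06 and -0.07. These 4 genes were chosen here after their values were seen. The SE of the log2 FPKM ratio, from the authors' deposited table, was 0.51 for Stat3, 0.58 for Hp and 0.38 for Hnf4a. These values are RNA levels, and the activity of the pathway was not measured.

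**Figure D4:**
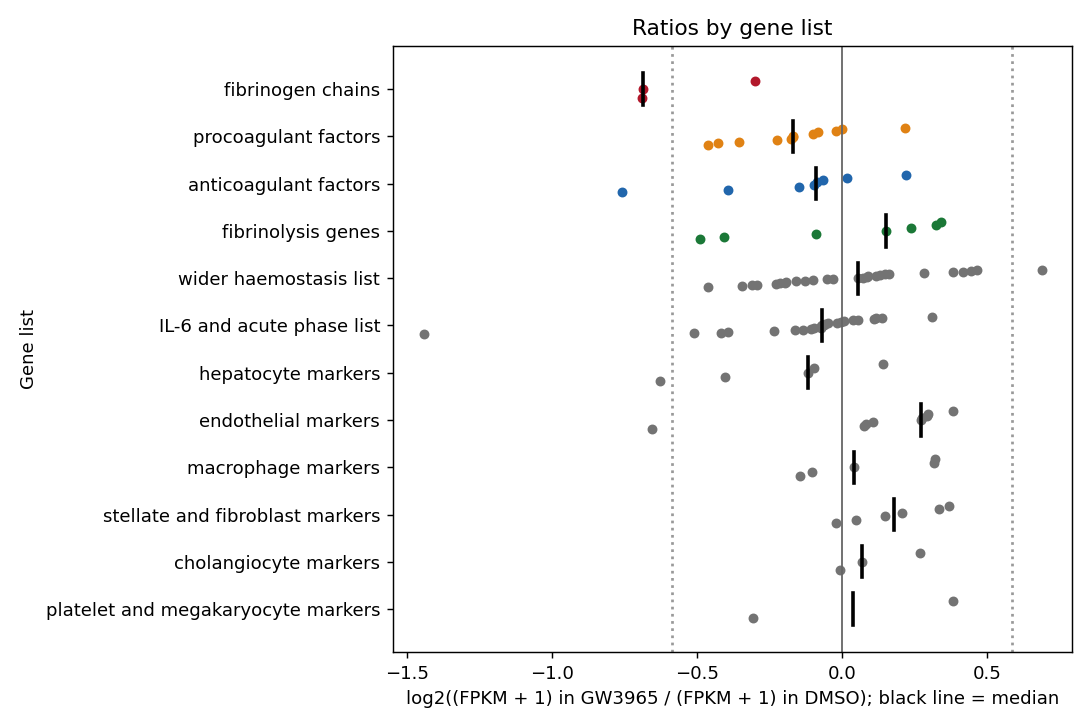
Log2 ratio of GW3965 to DMSO with the pseudocount (horizontal axis) for each gene of 12 lists at an FPKM of at least 1, points for genes and black lines for medians, with dotted lines at 1.5-fold. The fibrinogen chains have the lowest median, -0.68, and the endothelial markers the highest, 0.27.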

How the data were processed

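Total RNA was made into libraries with an Illumina TruSeq kit, per the labels' protocols. The submitters' processing notes name Cuffdiff, Cufflinks 2.0.2, TopHat2 2.0.6 and CASAVA, and the builds mm9 and NCBIM37. How the libraries were scaled, and whether strand was used, is not given in the sources used here, so reads of overlapping genes may be mixed. The deposited values are FPKM, 1 column per library, per the file headers. Each gene also has the authors' p-value, q-value and test statistic, a score signed opposite to the fold. Its log2 fold and signed fold columns, deposited by the authors, were not used. The 7 genes marked for too many fragments were left out, none of them a member.

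Members were matched by symbol. The members and lists were chosen with earlier results of these data known. By the rule for named genes, all members are named and, of the other haemostasis and the interleukin-6 lists, those past 1.5-fold and the 4 largest ratios in size. Cell type markers were to be given as list summaries, and the markers named singly were chosen after their values were seen. Further names are marked as chosen later or are given as background to a member. No SD or p-value could be computed from single libraries. The SE is the log2 FPKM ratio over the authors' score. Fragment numbers were estimated from FPKM, the shortest coding transcript in GENCODE M21 and the depth read from single-read steps. The 95% intervals are exact for the ratio of counts and cover counting error only. Promoters came from RefSeq (GRCm38.p6), which held 24 members. Table starts had 1 added. The size rule and the depth estimate were tested on simulated data with 2-fold changes and counting error only. That test did not cover changes near 1.5-fold or variation among cultures. Alternatives were pseudocounts of 0.1 and 5, no minimum or a minimum FPKM of 5, a 2-fold threshold, centring, scaling to 1 sum and the genes the authors tested. Computation used pandas 2.3.3, scipy 1.17.1 and numpy 2.4.6 under Python 3.11.15, and plots matplotlib 3.10.9.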

Additional observations from a re-analysis of the deposited data

How the results depend on the processing

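The count of lower members was 3 in the setting reported, 4 with a pseudocount of 0.1, which adds Klkb1, and 0 at 2-fold. It was 3 under every other alternative run, and the count of higher members was 0 in all of them. Medians of the set and of its 4 subgroups kept their sign and moved by less than the typical counting interval of their genes. The median of the other haemostasis genes was -0.032 at a minimum FPKM of 5, against 0.054, since fewer genes enter. The share of all genes past the size threshold was 2.35%, and it was 4.36% with a pseudocount of 0.1, 0.949% with 5, 0.812% without a minimum FPKM, 1.96% at a minimum of 5 and 0.797% at 2-fold. Of the single ratios, F2 alone changed sign, to -0.0096 after centring. No paired analysis was possible because replicates were lacking (1 library in each group). Low levels and a wide SE limit the values of F8 and Vwf, and the shared locus and the wide SE limit that of Klkb1.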
